A study of Mus musculus with 6 samples.

Results

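The epithelial-mesenchymal switch is run by a small set of regulator genes, of which 10 were followed here by symbol among the 49523 gene symbols of the count table. They are the inducers Zeb1, Zeb2, Snai1, Snai2 and Twist1, the epithelial factors Ovol1, Grhl2, Esrp1 and Ehf, and Vim, the filament gene that serves as the mesenchymal read-out. RNA was sequenced from EO771, a mouse mammary carcinoma line. By their labels, 3 libraries come from cancer stem cells (CSC) and 3 from non-stem cells (non-CSC), with no treatment, genotype or time given. How the stem cells were isolated is not said, nor whether each replicate is a culture of its own. The p-values therefore cover the spread among these 6 libraries, which may be technical.

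In an epithelial-mesenchymal transition, cells give up junctions and keratin-rich epithelial character for motility, vimentin filaments and matrix production. ZEB, SNAI and TWIST proteins bind E-box sequences and repress epithelial genes such as Cdh1. Grainyhead-like and OVOL factors hold the ZEB genes down in epithelia, ESRP proteins set epithelial splicing, and the miR-200 microRNAs, which ZEB proteins repress in turn, bind the 3′ untranslated regions of the ZEB messages. Stem-like states in mammary cells have been tied to this programme, often to partial forms of it.

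The miR-200 family and its matches in the ZEB messages are shown first, as sequence. The microRNAs, from RefSeq (GRCm38.p6), are shown because they fall into 2 groups by seed, the bases in capitals that pair with a target.
mmu-miR-200b-3p: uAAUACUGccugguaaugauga
mmu-miR-200c-3p: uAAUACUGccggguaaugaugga
mmu-miR-429-3p: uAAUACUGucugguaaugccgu
mmu-miR-200a-3p: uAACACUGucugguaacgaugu
mmu-miR-141-3p: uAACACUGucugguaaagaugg

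The seed of the first 3 pairs with CAGTATT in a message, and that of the last 2 with CAGTGTT. In the longest annotated 3′ untranslated regions (GENCODE M21, GRCm38), read on the message strand, CAGTATT occurred 5 times in Zeb1 and 5 times in Zeb2, and CAGTGTT 4 times in each. Of 21104 genes with such a region, 13.9% held CAGTATT at least once and 0.0521% held it 4 times or more. The second motif, CAGTGTT, occurred at least once in 18.0% of those genes, and 0.251% held it 4 times or more. The region was 2401 bases long in Zeb1 and 4941 in Zeb2, and these shares cover regions of every length, with no matching for length. Snai1 and Snai2 each held CAGTATT once, Snai2 and Grhl2 each held CAGTGTT once, and Twist1, Ovol1, Esrp1, Ehf and Vim held neither. A match is a description of letters and not evidence of a site in use. The 5 CAGTATT matches of Zeb2, on the minus strand, are printed with the match in capitals to show how the letters around it differ.
Zeb2 at chr2:44988166-44988188: ccatacatCAGTATTttattatt
Zeb2 at chr2:44988101-44988123: cagtgcatCAGTATTacgattcc
Zeb2 at chr2:44987739-44987761: acccgtgtCAGTATTagacgact
Zeb2 at chr2:44987654-44987676: aattttgtCAGTATTacaccaaa
Zeb2 at chr2:44987520-44987542: gtagtgtaCAGTATTatagttct

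Reads assigned to the microRNA loci themselves were too few to test. Mir200a had 0, 1 and 1 counts in non-CSC and 2, 8 and 5 in CSC. Mir200b had 0, 3 and 1 counts against 2, 6 and 5, and Mir429 had 1, 1 and 0 against 2, 3 and 1. Mir200c had a single count in the 6 libraries, Mir141 had 4, Mir34a had 0 to 4 in a library, and Mir205 and its host gene had 0. These rows count long-library reads over the loci and do not measure mature microRNA.

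Totals ranged from 27099879 to 35971131 counts per library, and levels are given as CPM, counts per 1000000 counts of the scaled library size. A gene is called changed at an adjusted p under 0.05 in edgeR's quasi-likelihood test over 17630 genes. Of these 66.5% were called, 33.4% higher and 33.1% lower in CSC, so a call by itself is common here and sizes matter more. In bulk RNA, fewer cells of a type and less RNA per cell cannot be told apart. Replicates differed by more than counting noise, and none was counted as a duplicate.

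EO771 carried keratins and vimentin together with almost no E-cadherin message. In the luminal list, Krt18 lay at 1255 ± 21.6 CPM in non-CSC and 1267 ± 42.5 in CSC (SD, n = 3 each), while Cdh1, which encodes E-cadherin, lay at 0.952 ± 0.110 and 0.752 ± 0.140 CPM (SD, n = 3 each). Krt18 and Cdh1 were chosen after their values were seen. The 8 luminal markers summed to 3218 to 3376 CPM in non-CSC and 4006 to 4181 in CSC; 4 were called higher and 1 lower. Krt7 made up the largest part of the rise in that sum, going from 501 to 1057 CPM, by 1.08 on the log2 scale. On the same scale Cd24a rose by 0.50 and Krt8 by 0.27, and Epcam fell by 1.05. The 6 basal markers summed to 235.4 to 237.7 CPM in non-CSC and 269.3 to 281.6 in CSC, and 3 of them could be tested, 2 called higher and 1 lower. Nearly all of that sum was the keratin gene Krt14, at 224 CPM in non-CSC and 259 in CSC. Krt14 rose by 0.21 and the myosin kinase gene Mylk by 0.73 on the log2 scale. The basal keratin gene Krt5, named after its values were known, had the largest change of the 3 and went the other way. It had 123, 119 and 126 counts in non-CSC and 32, 34 and 19 in CSC, and fell by 1.85 on the log2 scale (SE 0.168, edgeR adjusted p = 1.29e-09).

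Markers of other cell types were partly present. Of 8 fibroblast markers 3 could be tested and all 3 were called higher, with sums of 555 to 589 CPM in non-CSC and 1196 to 1243 in CSC. Nearly all of that sum was Dcn, the matrix proteoglycan decorin, at 567 ± 16.5 and 1212 ± 22.6 CPM (SD, n = 3 each), while Lum and Thy1 had 0 counts in all libraries and Col1a2 had 1 count in all. Col1a1, a collagen gene that the mesenchymal list also holds and that was named after its values were known, rose from 0.514 to 1.06 CPM. Pdgfra rose by 0.36 on the log2 scale, a call lost without non-CSC replicate 2, non-CSC replicate 3 or CSC replicate 2. The 6 immune markers summed to 25.2 to 27.3 CPM in non-CSC and 27.4 to 28.9 in CSC, with Cd3e and Adgre1 at 0 counts and Ptprc, the pan-leukocyte gene, at 1 to 6 counts. Of the 2 that could be tested, Itgam, an integrin subunit, rose from 0.741 to 10.2 CPM and Cd68 fell from 25.4 to 17.8 CPM. The 4 endothelial markers summed to at most 0.797 CPM. Whether cells of these types were present, and any part they had in the results below, was not tested.

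Of the 10 switch genes, 3 were silent or nearly so. Gene positions here and below are from GENCODE M21 (GRCm38). Snai2 (chromosome 16, 14705852 to 14709385, plus strand) encodes Slug, a SNAI factor known from basal mammary cells, and had 0 counts in each of the 6 libraries. Twist1 (chromosome 12, 33957671 to 33959829, plus strand), a basic helix-loop-helix inducer of the switch, also had 0 counts in each. Esrp1 (chromosome 4, 11331933 to 11386783, minus strand), an epithelial splicing regulator, had 0 counts in 5 libraries and 1 count in CSC replicate 3. For a count of 0, an upper limit of 3 counts was taken, which is 0.0849 to 0.109 CPM in a single library. Over the 6 together it is 0.0161 CPM, for Snai2 and Twist1 but not for Esrp1 with its 1 count. These limits cover counting error only. None of the 3 genes passed the low-count filter, so no fold is given. An exact permutation test of log2 CPM cannot decide on Esrp1. With its 1 count in a single library, every split of the 6 libraries gives a difference of the same size.

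Relatives of Twist1 and Esrp1 were expressed, and that of Snai2 hardly was. Twist2, the paralog of Twist1, had 736, 791 and 746 counts in non-CSC and 476, 449 and 420 in CSC. It fell from 22.5 ± 1.21 to 15.9 ± 1.40 CPM (SD, n = 3 each). The log2 fold change was -0.50 ± 0.067 (SE, edgeR adjusted p = 6.37e-07). Esrp2, the paralog of Esrp1 and chosen after its value was seen, lay at 36.4 ± 2.58 CPM in non-CSC and 35.7 ± 1.02 in CSC (SD, n = 3 each), and was not called. Snai3, the remaining SNAI gene, had 4, 6 and 5 counts in non-CSC and 1, 2 and 3 in CSC and was not tested. Of the SNAI genes, only Snai1 was thus read above 6 counts in a library.

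**Figure D1:**
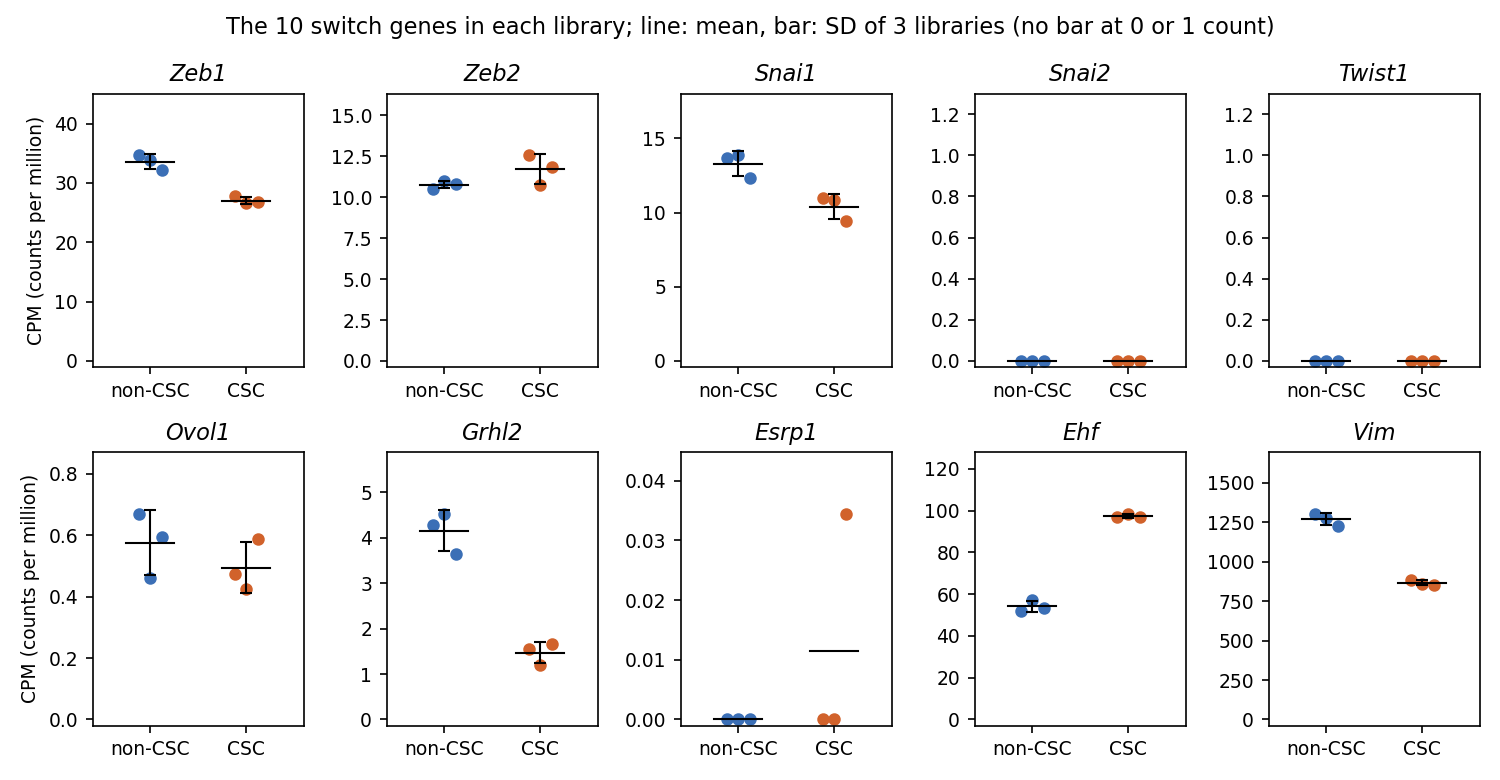
Level in CPM of each of the 10 switch genes in the 3 non-CSC (blue) and 3 CSC (orange) libraries, on linear axes that differ between panels; lines are group means and bars the SD. Ehf is higher in every CSC library, Zeb1, Snai1, Grhl2 and Vim are lower in every CSC library, Zeb2 and Ovol1 overlap, and Snai2, Twist1 and Esrp1 lie at 0 or 1 count.

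The remaining 7 genes passed the filter, and 5 of them were called, 1 higher and 4 lower in CSC, with CPM that did not overlap between groups in the same 5. That is 71.4% of the 7, near the 66.5% called over all tested genes, so the share is not a result about the switch genes. Over all tested genes the groups did not overlap for 69.3%. The median log2 fold change of the 7 was -0.31, against 0.01 for all tested genes. The median size, leaving the sign aside, was 0.35 for the 7 and 0.33 for all tested genes. Only Grhl2 changed at least 2-fold, a size reached with a call by 12.1% of tested genes.

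Among the inducers, Zeb1 and Snai1 were both lower in CSC by about the size of the typical gene, and Zeb2 was not called. Zeb1 is a zinc finger and homeodomain repressor on chromosome 18 (5591860 to 5775467, plus strand). It was read at 34.7, 33.9 and 32.2 CPM in non-CSC and at 27.7, 26.5 and 26.8 CPM in CSC. Each CSC library thus lay below each non-CSC library. The log2 fold change was -0.31 ± 0.051 (SE, edgeR adjusted p = 1.09e-05), and 48.0% of tested genes changed by less. Gm10125, which overlaps 1.93% of Zeb1 exon bases, had 2 to 8 counts in a library.

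Zeb2, the ZEB paralog on chromosome 2 (44983632 to 45117395, minus strand), was read at 10.5, 11.0 and 10.8 CPM in non-CSC. In CSC it was read at 12.6, 10.7 and 11.8 CPM, and CSC replicate 2 lay within the non-CSC range. The log2 fold change was 0.12 ± 0.073 (SE, edgeR adjusted p = 0.152), with a 95% interval from -0.03 to 0.27. Upper-quartile and plain library-size scaling, which move the median of all genes by 0.06 and 0.07 on the log2 scale, brought Zeb2 past the threshold (log2 fold change 0.18 and 0.19, adjusted p = 0.0344 and 0.0281). Zeb2os, the antisense gene that shares 3.27% of Zeb2 exon bases, had 0 to 4 counts in a library.

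Because a call for Zeb1 and none for Zeb2 does not show that the pair changed differently, the ratio of their counts per exon length was taken within each library. Zeb1 exceeded Zeb2 by 5.79 to 6.40 times in non-CSC and by 4.29 to 4.80 times in CSC. The ranges did not overlap, and the log2 ratio was lower in CSC by a difference of -0.43 (exact two-sided permutation p = 0.1, the smallest possible). The ratio needs no library scaling. It was one of 2 such ratios, both chosen after the values were seen, and Benjamini-Hochberg adjustment leaves p at 0.1.

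Snai1 encodes Snail, the zinc finger repressor of Cdh1, on chromosome 2 (167538195 to 167542814, plus strand). It was read at 13.7, 13.9 and 12.3 CPM in non-CSC and at 11.0, 10.8 and 9.44 CPM in CSC. The groups did not overlap, with CSC replicate 3 lowest. The log2 fold change was -0.35 ± 0.075 (SE, edgeR adjusted p = 0.000249). Its promoter is printed because Snail is known to bind its own gene through an E-box. The 250 bases before the RefSeq start (GRCm38.p6, chr2:167537945-167538194, plus strand) hold 1 match to CACCTG, in capitals, beginning 126 bases before the start.
Snai1 promoter: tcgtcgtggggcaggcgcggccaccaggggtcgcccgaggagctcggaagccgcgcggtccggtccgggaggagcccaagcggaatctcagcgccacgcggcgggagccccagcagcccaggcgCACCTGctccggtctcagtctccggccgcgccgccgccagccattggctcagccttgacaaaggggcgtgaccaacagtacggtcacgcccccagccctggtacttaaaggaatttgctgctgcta

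On both strands, CACCTG was found in 17.2% of 32851 promoter windows of that length. Windows were given for 4 of the 10 genes: Snai1, Vim, Twist1 and, with 4 alternative starts, Zeb2. AACCNGTT, the grainyhead-like motif, matched none of those read here, against 1.79% of all windows. TGANTCA, the AP-1 motif, matched only at a single Zeb2 start (chr2:45110278-45110527, minus strand), which held it 2 times, against 6.75% of all windows with a match. The Vim and Twist1 windows held none of the 3 motifs.

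The epithelial factors split. Ehf rose, Grhl2 fell, Ovol1 was near the limit of detection and Esrp1 below it. Ehf, an ETS factor of epithelial cells, lies on chromosome 2 (103263433 to 103303278, minus strand). It was read at 52.2, 57.1 and 53.4 CPM in non-CSC and at 96.9, 98.5 and 97.2 CPM in CSC. Every CSC library was thus far above every non-CSC library. The change was 1.80-fold, with a log2 fold change of 0.85 ± 0.042 (SE, edgeR adjusted p = 2.81e-14), and 84.0% of tested genes changed by less.

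Grhl2, a grainyhead-like factor that activates Cdh1 and junction genes and represses Zeb1 in epithelia, lies on chromosome 15 (37233036 to 37363569, plus strand). Its counts were 134, 157 and 129 in non-CSC and 43, 34 and 48 in CSC. These were 4.27, 4.53 and 3.65 CPM against 1.56, 1.20 and 1.65 CPM. All CSC libraries were below 2 CPM and all non-CSC libraries above 3. The level was 2.81-fold lower in CSC, with a log2 fold change of -1.49 ± 0.144 (SE, edgeR adjusted p = 3.96e-09) and a 95% interval from -1.79 to -1.19. It was the largest change of the 7, and 93.8% of tested genes changed by less. Its level was low, and only 30.2% of tested genes had a lower mean CPM.

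Ehf and Grhl2 were also compared within libraries. Within libraries, Ehf exceeded Grhl2 by 18.9 to 22.6 times per exon length in non-CSC and by 90.7 to 126.6 times in CSC. The log2 difference was 2.35 (exact two-sided permutation p = 0.1, the smallest possible). That p was fixed in advance because Ehf was higher and Grhl2 lower in every CSC library, so it adds nothing to their calls. The pair was chosen after its values were seen. Ovol1, a zinc finger repressor of Zeb1 on chromosome 19 (5549136 to 5560646, minus strand), had 21, 16 and 21 counts in non-CSC and 13, 12 and 17 in CSC. The CPM of the groups overlapped, from 0.461 to 0.669 and from 0.424 to 0.586. The log2 fold change was -0.21 (edgeR adjusted p = 0.535), with a 95% interval from -0.78 to 0.36. That interval holds no change as well as changes in both directions, so the direction is not settled at this depth. Gm31166, on the opposite strand, covers 19.8% of Ovol1 exon bases and had 117 to 174 counts. Whether counting used strand is not known here, so reads from the shared bases cannot be told apart.

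Vim encodes vimentin, the intermediate filament of mesenchymal cells, on chromosome 2 (13573927 to 13582826, plus strand). It was read at 1305, 1279 and 1229 CPM in non-CSC and at 885, 862 and 854 CPM in CSC. Groups were far apart relative to their spread, with SDs of 38.7 and 16.0 CPM. The log2 fold change was -0.55 ± 0.034 (SE, edgeR adjusted p = 1.68e-12), so CSC held 68.2% of the non-CSC level. Vim stayed among the most abundant messages in both groups, and 99.7% of tested genes had a lower mean CPM. The fibroblast marker sum given above, nearly all of it Dcn, was higher in CSC, where Vim was lower. Any relation between them was not tested.

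Levels of different genes were set side by side as CPM per kilobase of exon. Vim led with 268 ± 8.15 in non-CSC and 183 ± 3.36 in CSC (SD, n = 3 each). Ehf followed with 9.73 ± 0.459 and 17.5 ± 0.151, and Snai1 with 8.21 ± 0.519 and 6.42 ± 0.516. Ehf was thus the strongest of the 4 epithelial factors and Snai1 of the 5 inducers, and the ranges of Ehf and Snai1 did not overlap in either group. Zeb1 came next at 3.27 ± 0.122 and 2.63 ± 0.0605. Zeb2 (0.540 ± 0.0118) and Grhl2 (0.482 ± 0.0523) were neighbours in non-CSC, where the lowest Zeb2 library (0.527) lay just above the highest Grhl2 library (0.525). In CSC they were apart, at 0.587 ± 0.0457 and 0.171 ± 0.0277. Grhl2 and Ovol1 (0.142 ± 0.0238) overlapped in CSC. The order of the 7 was the same in both groups and with the length of the longest transcript in place of all exons. With that length Zeb2 stood at 1.18 and Zeb1 at 5.79 in non-CSC.

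**Figure D2:**
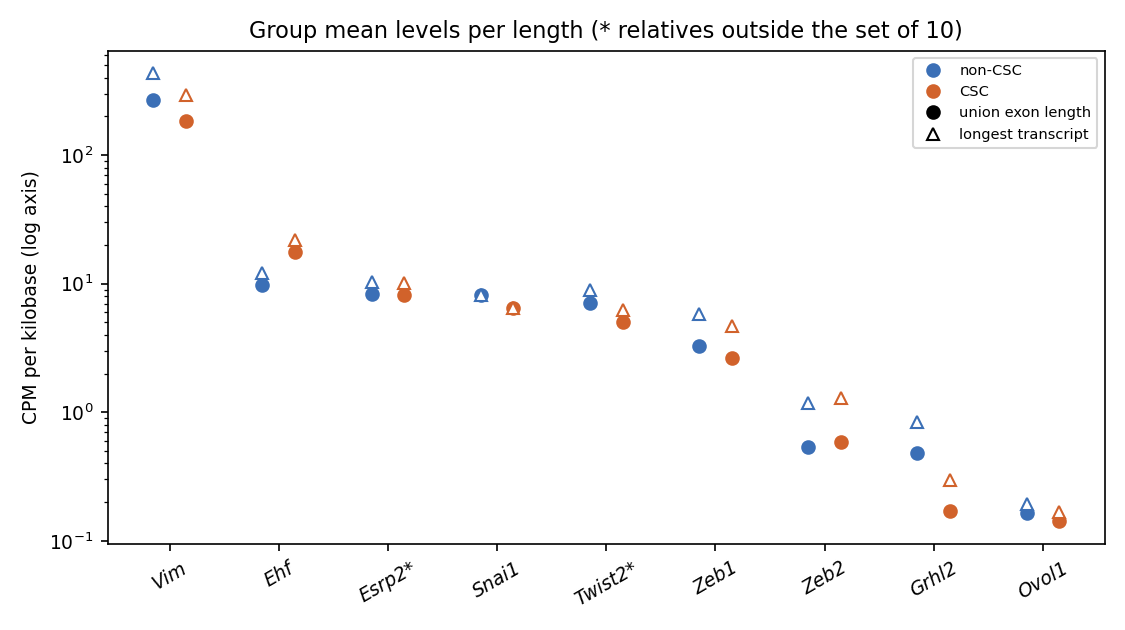
Group mean level in CPM per kilobase on a log axis for the 7 switch genes that were tested and for their relatives Esrp2 and Twist2 (starred), using all exon bases (filled circles) or the longest transcript (open triangles). Vim lies at 268 in non-CSC, Ehf, Snai1 and the 2 relatives lie between 5 and 18, and Grhl2 and Ovol1 lie under 0.5 in both groups, all per kilobase of all exons.

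Genes next to each switch gene gave a local background. For each, the median log2 fold change was taken over 15 tested genes on either side (27 in all for Zeb1, near a chromosome end, and 30 otherwise). That median was 0.01 around Zeb1, -0.01 around Zeb2, -0.02 around Snai1, -0.06 around Grhl2 and -0.03 around Vim, all closer to 0 than the change of the gene itself. Around Ehf it was 0.16, 0.68 below its own 0.85. The 30 genes around Ovol1 had a median of -0.38, with 22 called lower and 1 higher, beside -0.21 for Ovol1 itself. The 30 around the silent Twist1 had a median of -0.49, with 20 called lower and 4 higher. Both chromosomes were low as a whole. The median was -0.24 over the 632 other tested genes of chromosome 19, which holds Ovol1. It was -0.34 over the 615 tested genes of chromosome 12, which holds Twist1. The low medians around Ovol1 and Twist1 are therefore not read as local to these genes.

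**Figure D3:**
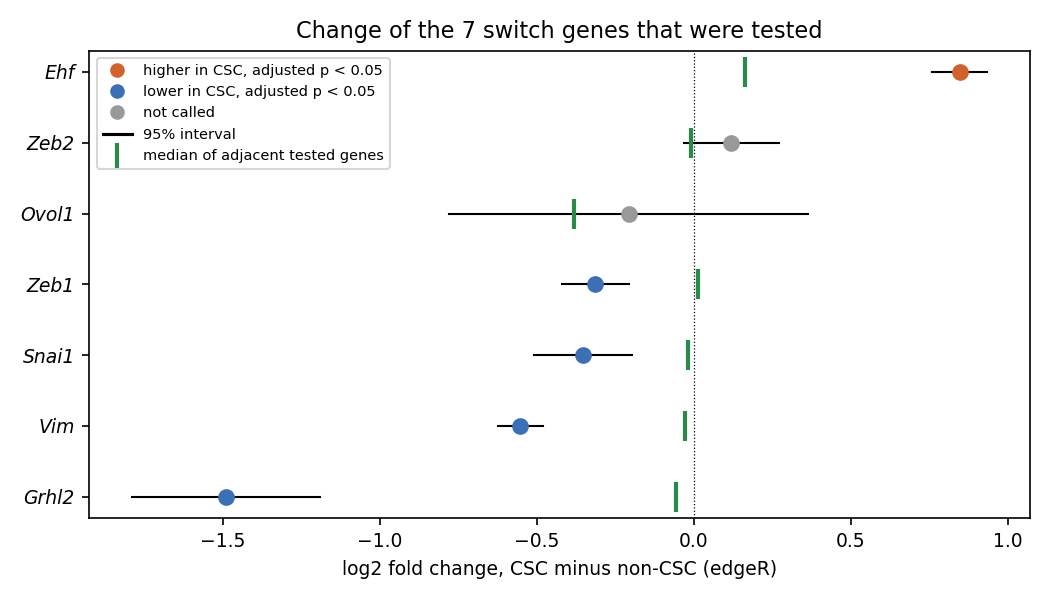
Log2 fold change (CSC minus non-CSC) with its 95% interval for the 7 switch genes that were tested; green ticks are the median change of the adjacent tested genes. Ehf (0.85) and Grhl2 (-1.49) lie farthest from their neighbourhoods, while the intervals of Zeb2 and Ovol1 include 0.

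Beside the counts of this list and those below, 33.4% of all tested genes were called higher and 33.1% lower. The lists were chosen with earlier results of these data known, so their counts were not tested against these shares. Other inducers of the switch were mixed. Of 17 listed, 9 could be tested, 3 were called higher and 5 lower, with a median of -0.14. Sox9, a factor of stem and progenitor cells, fell from 47.7 ± 1.89 to 20.8 ± 0.498 CPM, and the forkhead gene Foxq1 from 84.8 ± 4.46 to 38.5 ± 1.01 CPM (SD, n = 3 each). Tcf4, which encodes the E-protein E2-2, rose by 0.64 on the log2 scale. Twist2 is described above. Foxc2 and Gsc had 0 counts, and Prrx1, Foxc1 and Klf8 had at most 2 in a library.

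Other epithelial identity factors were split. Of 17 listed, 9 could be tested, 3 higher and 3 lower, with a median of -0.02. Cebpb, a bZIP factor with wide roles, fell from 160 ± 8.78 to 81.0 ± 4.84 CPM (SD, n = 3 each). The ETS gene Elf3 rose by 0.19 and Klf4 fell by 0.18 on the log2 scale. Foxa1, a luminal pioneer factor, fell by 0.20. That call did not hold under upper-quartile scaling, plain library size or without CSC replicate 1 (adjusted p = 0.0699, 0.0865 and 0.0595). Grhl1, the paralog of Grhl2, was the only gene of this list called at least 2-fold higher, and was named after its values were known. It had 23, 13 and 16 counts in non-CSC and 21, 43 and 27 in CSC, with a log2 fold change of 1.06 ± 0.290 (SE, edgeR adjusted p = 0.00314), while Grhl2 fell. Without CSC replicate 2, the highest library, the Grhl1 log2 fold change was 0.72 (edgeR adjusted p = 0.0457). Ovol2, Gata3, Spdef and Tfap2c had 0 counts. Trp63, the basal factor p63, had 0 counts in each non-CSC library and 8, 9 and 8 in CSC, too few to pass the filter.

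The corepressors and chromatin enzymes that ZEB and SNAI proteins recruit counted 11 of 17 lower and 4 higher, with a median of -0.20. Over all tested genes 33.1% were lower and 33.4% higher. The count of higher genes was 2 when non-CSC replicate 2, non-CSC replicate 3, CSC replicate 1 or CSC replicate 2 was left out. Rcor1 (CoREST) fell by 1.04 and Kdm1a (LSD1), the demethylase of the same complex, by 0.78 on the log2 scale. Kmt5a, a histone H4 methyltransferase and Twist partner, fell by 0.85, and the arginine methyltransferase gene Prmt5 by 0.74. Ctbp1, a ZEB corepressor named after its values were known, fell by 0.20. Genes of Snail protein turnover were split, 5 of 12 higher and 6 lower (median -0.13). The ATM kinase gene Atm rose by 0.96 and Lats2 by 0.45, while the ubiquitin ligase genes Fbxl5 and Btrc fell by 0.58 and 0.49 on the log2 scale.

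Targets of the switch moved in both directions. Of 35 epithelial junction and surface genes, 26 could be tested, 10 higher and 9 lower, with a median of 0.05. Besides Krt7 and Epcam, Cgn, which encodes the tight junction protein cingulin, rose by 0.69 and the plakophilin gene Pkp3 fell by 0.61 on the log2 scale. Larger changes stood at low levels, in 3 genes named after their values were known. The claudin gene Cldn4 fell from 5.66 to 1.34 CPM and the protease gene Prss8 from 1.91 to 0.863 CPM, and Tjp3, which encodes a tight junction scaffold, rose from 1.22 to 4.48 CPM. Of 26 mesenchymal genes, 16 could be tested, 7 higher and 6 lower, with a median of 0.02; with only genes of a mean of at least 50 counts, 4 were higher. S100a4, a calcium-binding protein gene, rose from 3.38 ± 0.255 to 8.93 ± 0.596 CPM (SD, n = 3 each). The matrix enzymes Loxl2 and Mmp14 fell by 0.54 and 0.51 on the log2 scale. Cdh2, the N-cadherin gene that often replaces Cdh1, was chosen after its value was seen. It rose from 27.6 ± 0.430 to 32.5 ± 1.19 CPM (SD, n = 3 each).

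Filament and linker genes stood beside Vim. Of 14 listed, 11 could be tested, 4 higher and 3 lower, with a median of 0.07. The lamin genes Lmnb2 and Lmnb1 fell by 0.55 and 0.18, and the keratin gene Krt80 rose by 0.35 on the log2 scale. The list also holds Krt5, described above. Plec, the plectin that ties vimentin to other filaments, chosen after its value was seen, had a log2 fold change of -0.02 and was not called.

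Splicing was covered by a pair of lists. Of 16 genes whose exons ESRP proteins are known to control, 14 could be tested at gene level, 3 higher and 9 lower, with a median of -0.17. Gene counts do not show exon choice. Nfya fell by 0.89 and Magi1 by 0.48, and Fgfr1 rose by 0.30 on the log2 scale. Of 10 other splicing factors, 6 were lower and 1 higher (median -0.22). Qk, known to be raised in mesenchymal splicing, fell by 0.55, Ptbp1 by 0.32 and Mbnl1 by 0.31, and Srsf1 rose by 0.31 on the log2 scale.

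Upstream, the TGF-beta signal that induces SNAI and ZEB genes showed 4 of 11 tested genes higher and 5 lower, with a median of -0.07. The ligand gene Tgfb1 fell by 0.36, while the receptor genes Tgfbr1 and Tgfbr2 rose by 0.62 and 0.21 and the feedback inhibitor gene Smad7 by 0.60 on the log2 scale. The ligand gene Tgfb2, named after its values were known, had 9, 7 and 10 counts in non-CSC and 43, 30 and 33 in CSC, and rose by 2.27 on the log2 scale (SE 0.274, edgeR adjusted p = 1.48e-07).

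**Figure D4:**
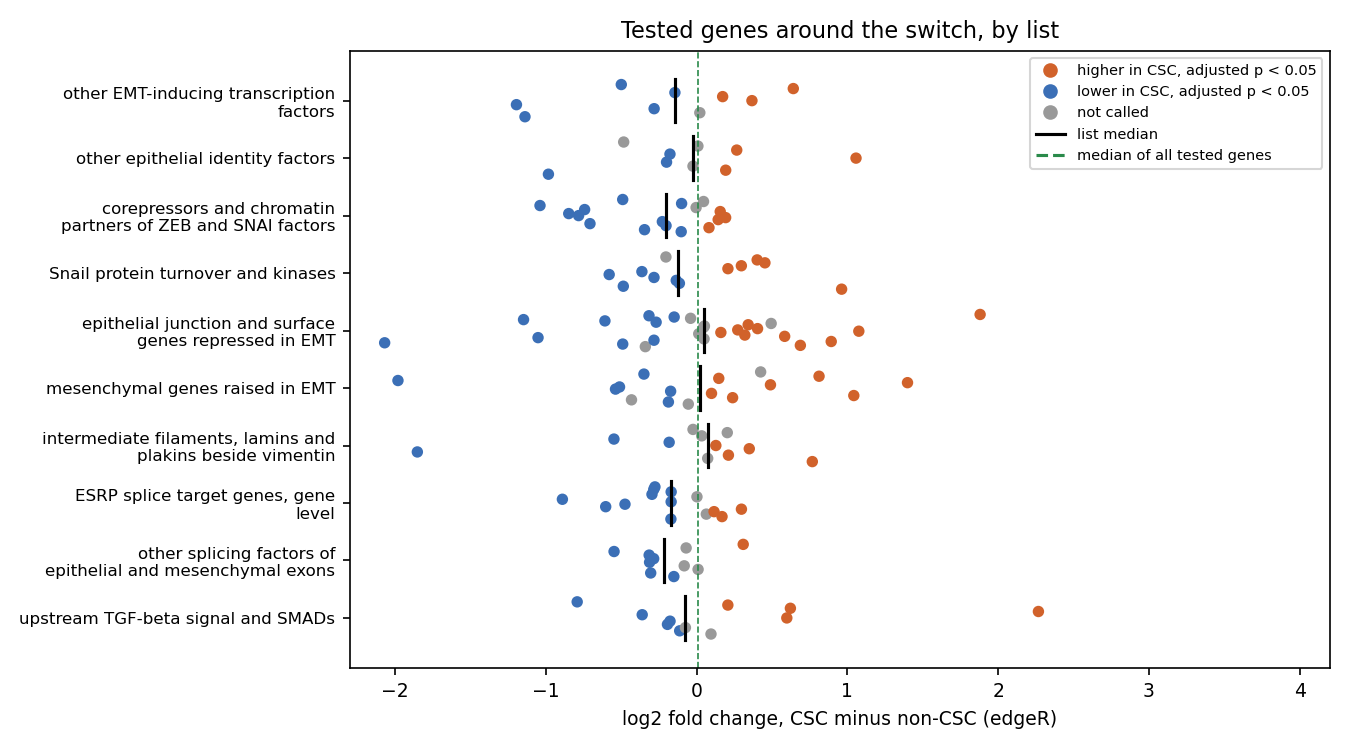
Log2 fold change (CSC minus non-CSC) of each tested gene in the 10 lists around the switch, coloured by call; black bars are list medians and the dashed line is the median of all tested genes (0.01). List medians run from -0.22 (other splicing factors) to 0.07 (filaments and linkers), and both epithelial and mesenchymal targets spread to each side.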

How the data were processed

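The authors deposited raw counts for 6 RNA libraries in a single table with a row for each symbol, on GRCm38 per the submitters' processing notes. Aligner, counter, annotation and strand setting: not given in the sources used here. Columns were matched to samples by group word and replicate number. The switch genes and the 16 gene lists around them (202 distinct genes beside the 10) were chosen with earlier results of these data known.

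From the deposited counts, edgeR 4.0.16 (R 4.3.3) filtered genes (filterByExpr), scaled libraries by TMM and fitted CSC against non-CSC with the quasi-likelihood test (robust, no covariate), adjusted by Benjamini-Hochberg over 17630 genes with a threshold of 0.05. The fit was tested on simulated data in which far fewer genes changed than were called here. That test does not cover changes this widespread. A standard error is the log2 fold change's size divided by the square root of F. Named list genes are the up to 4 largest changes per list with a call and a mean of at least 5 CPM; others are said to be chosen after their values were seen. Some list genes are not reported here by name. Replicates had a chi-square per degree of freedom of 3.21 to 7.30. The alternatives tried were scaling by RLE, by upper quartile or by library size alone, 2 other filters, DESeq2 1.42.0, limma-voom 3.58.1, the robust setting off, a replicate block and leaving out each library. Lengths, overlaps and 3′ regions came from GENCODE M21, promoters and microRNAs from RefSeq. Snai2 shares 0.963% of its 50-base words with other genes' transcripts, and the other 9 share none.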

Additional observations from a re-analysis of the deposited data

How the results depend on the processing

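Of the 7 tested switch genes, 6 kept their direction and their side of the threshold under every alternative that gave them a value (15 alternatives, and 14 for Ovol1, which the filter at a mean of 50 counts removes). The exception was Zeb2, which passed the threshold with upper-quartile scaling (log2 fold change 0.18) and plain library size (0.19), so that 2 in place of 1 of the switch genes were called higher; the cause was not tested. Without single libraries, log2 fold changes ran from -0.35 to -0.30 for Zeb1, 0.06 to 0.17 for Zeb2, -0.41 to -0.29 for Snai1, -0.35 to -0.11 for Ovol1, -1.59 to -1.37 for Grhl2, 0.81 to 0.88 for Ehf and -0.58 to -0.54 for Vim. Among genes not called and near 0, the sign varied: Esrp2 stood at 0.034 with upper-quartile scaling, 0.041 with plain library size, 0.0071 with a mean of at least 50 counts and -0.080 to 0.013 without single libraries. Plec stood at 0.034, 0.042 and 0.0073 under the first 3 of these, and Krt18 at -0.012 with no filter, -0.014 to 0.035 without single libraries and 0.080 (called higher) with plain library size. Calls over all genes ranged from 9859 (mean of at least 50 counts) to 12763 (no filter beyond 1 count), with 10352 by DESeq2 and 11175 to 11578 without single libraries. With the replicate block, 11680 genes were called and no switch gene changed its call. Same-numbered libraries did not deviate together (r = -0.011, -0.026 and -0.022), so the numbers were not taken as pairs. Per-length levels depend on the annotated length, and low counts limit what can be said of Ovol1, Grhl2 and the silent genes.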
